A study of Mus musculus with 18 samples.

Results

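Krtdap, Dmkn, Sbsn, Calm4, Calm5, Calml3, Lgals7, Lgals3, Fabp5 and Sfn encode secreted or cytosolic proteins of keratinocytes, grouped here as proteins of the layers above the basal one. They were chosen by gene symbol: a probe set belongs here if the platform annotation gives it exactly one of these 10 symbols. Of the 10 genes, 9 are on the array, which names 18193 genes, with 12 probe sets out of 45037 that are not array controls; Calm5 has none under its own symbol. All 12 ranged by at least 0.01 over the 18 arrays, as did 11946 probe sets in all, and none was removed for a low value.

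The arrays hold RNA from the back skin of hairless albino mice (strain HR-1, males, labelled as 6 weeks of age), with 6 biological replicates in each of 3 groups. NT skin was not stripped. TS skin was stripped with cellophane tape 3 times a week for 4 weeks, each session ending when water loss through the skin reached 70 to 100 g/m2/h. WB mice had the same stripping, combined with an oral extract of winged bean at 200 mg/kg/day in 0.3% carboxymethylcellulose, 5 times a week for 5 weeks, of which 1 week preceded the stripping. The sources used here do not say whether NT and TS mice received the carboxymethylcellulose alone. All groups share the hairless background, so no haired control exists, and whole skin holds dermis, fat and muscle beside the epidermis.

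The epidermis renews itself from a basal layer, and cells moving upward switch on a programme that ends in the cornified barrier. Much of that programme is structural, and these genes are grouped here as its soluble side. Whether the signal of each comes from cells above the basal layer alone was not tested. Krtdap (keratinocyte differentiation-associated protein), Dmkn (dermokine) and Sbsn (suprabasin) are secreted proteins of the spinous and granular layers. Calm4, also known as Scarf, Calm5, also known as Scarf2, and Calml3 are calmodulin-like calcium-binding proteins of stratified epithelium, where a calcium gradient drives differentiation. Lgals7 and Lgals3 encode galectins, lectins that bind beta-galactosides. Fabp5 carries fatty acids in the cytosol, and Sfn encodes stratifin, the 14-3-3 sigma adaptor, which is induced by p53 and holds back the cell cycle.

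Sbsn, Dmkn and Krtdap lie next to each other on chromosome 7 with no other coding gene between them, and Calml3, Calm4 and Calm5 do so on chromosome 13. Lgals7 is also on chromosome 7, outside that group. The windows from 250 bases before to 50 bases after the start are shown for Sbsn, Dmkn and Krtdap, because the 3 genes are neighbours of one kind and each window holds a match to the same motif. The sequences are those of RefSeq on GRCm38.p6, all on the plus strand, and matches to TGANTCA, the core of the AP-1 motif, are in capitals.
Sbsn, chr7:30751221-30751520: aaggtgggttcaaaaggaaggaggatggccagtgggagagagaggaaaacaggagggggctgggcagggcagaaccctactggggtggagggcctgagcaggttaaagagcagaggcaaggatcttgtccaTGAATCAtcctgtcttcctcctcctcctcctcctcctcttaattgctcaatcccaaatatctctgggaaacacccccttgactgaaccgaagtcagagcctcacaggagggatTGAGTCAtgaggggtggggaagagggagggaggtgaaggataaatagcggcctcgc
Dmkn, first start, chr7:30763506-30763805: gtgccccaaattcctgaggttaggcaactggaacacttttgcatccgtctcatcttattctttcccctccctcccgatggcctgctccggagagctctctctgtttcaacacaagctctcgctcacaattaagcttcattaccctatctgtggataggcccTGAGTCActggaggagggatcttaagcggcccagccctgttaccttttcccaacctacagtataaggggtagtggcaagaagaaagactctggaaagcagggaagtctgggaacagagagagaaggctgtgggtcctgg
Dmkn, downstream start, chr7:30776155-30776454: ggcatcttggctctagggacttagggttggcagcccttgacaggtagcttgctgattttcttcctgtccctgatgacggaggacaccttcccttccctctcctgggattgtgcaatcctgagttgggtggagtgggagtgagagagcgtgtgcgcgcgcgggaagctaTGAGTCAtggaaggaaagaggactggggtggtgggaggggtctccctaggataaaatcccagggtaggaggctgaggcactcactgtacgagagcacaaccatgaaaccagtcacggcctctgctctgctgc
Krtdap, chr7:30787655-30787954: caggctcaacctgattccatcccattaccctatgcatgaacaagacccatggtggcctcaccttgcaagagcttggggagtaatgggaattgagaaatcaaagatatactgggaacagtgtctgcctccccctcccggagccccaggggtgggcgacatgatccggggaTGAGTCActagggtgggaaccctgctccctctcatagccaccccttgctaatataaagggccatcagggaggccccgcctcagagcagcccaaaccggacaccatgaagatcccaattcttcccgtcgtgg
Another listed Dmkn start lies 2 bases from the first and is not shown.

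RefSeq windows were found for 8 of the 10 genes, 10 windows in all; Fabp5 and Calml3 were not matched. TGANTCA reads the same on both strands in its fixed letters, and it was searched on both. Of the 10 windows 5 hold it, against 7.81% of 32851 mouse windows of the same length. All 5 are windows of Sbsn, Dmkn and Krtdap (3 of 8 genes). The 2 Dmkn windows that lie 2 bases apart hold the same match, so the 5 are not separate. In the windows of Dmkn and Krtdap the match starts 81 to 91 bases before the start of transcription, and Sbsn has matches 119 and 6 bases before it. TTGCNNAA, a C/EBP-type motif, was in 4 of the 10 windows, those of Sbsn and Dmkn (2 of 8 genes), against 10.8% of all windows. GCCNNNGGC, an AP-2-type motif, was in none, against 16.6% of all, and TATAAA was in 1, that of Krtdap, against 13.6%. All these motifs were searched on both strands and were picked after the windows had been read, and a match is a description of letters only.

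The Calm4 and Calm5 windows are shown because they are nearly copies of each other, and no capitals mark anything in them.
Calm4, chr13:3837507-3837806: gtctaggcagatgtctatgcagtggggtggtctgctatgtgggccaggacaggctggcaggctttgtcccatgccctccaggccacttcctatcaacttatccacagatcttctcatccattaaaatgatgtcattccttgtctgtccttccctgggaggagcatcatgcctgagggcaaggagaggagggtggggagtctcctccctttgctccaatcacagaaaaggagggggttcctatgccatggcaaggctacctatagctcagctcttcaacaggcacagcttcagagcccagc
Calm5, chr13:3853923-3854222: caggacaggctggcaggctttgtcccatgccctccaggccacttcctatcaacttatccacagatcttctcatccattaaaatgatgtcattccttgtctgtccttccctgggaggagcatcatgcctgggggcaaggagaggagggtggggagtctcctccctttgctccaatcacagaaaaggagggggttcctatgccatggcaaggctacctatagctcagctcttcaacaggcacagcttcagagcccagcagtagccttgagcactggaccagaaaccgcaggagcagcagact
Shifted by 44 bases they overlap over 256 bases, of which 255 are identical (99.6%). Each window holds 250 bases before the start and 50 after it. Their likeness therefore does not show which RNA the Calm4 probe set detects. The sequences of the array's probes were not used here, so whether the Calm4 probe set also detects Calm5 RNA was not tested, and its values are uncertain in that respect.

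Values below are the deposited values, read as log2, and ± is the SD over 6 arrays. Array medians lay between 6.90 and 6.95. Differences are from limma over all 45037 probe sets and all 18 arrays with Benjamini-Hochberg adjustment, and a probe set is called when its adjusted p is under 0.05 and its difference is at least 0.01. On the array NT 5 a list of 6 liver genes averaged 15.88 against an NT median of 6.85; without NT 5 the same 6 of the 12 probe sets were called in TS against NT. The WB arrays stand apart in their RNA: the array's control probe sets for the 3' minus the 5' end of beta-actin differed by 5.27 to 5.96 in WB, but by 0.08 to 0.26 in TS and by -0.65 to -0.38 in NT. For Gapdh the WB range was 3.45 to 4.41, the TS range -0.62 to -0.31 and the NT range -0.77 to -0.48. All WB arrays are far above all others in both, so feeding of the extract and the state of the labelled RNA cannot be told apart in any comparison with WB.

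**Figure D1:**
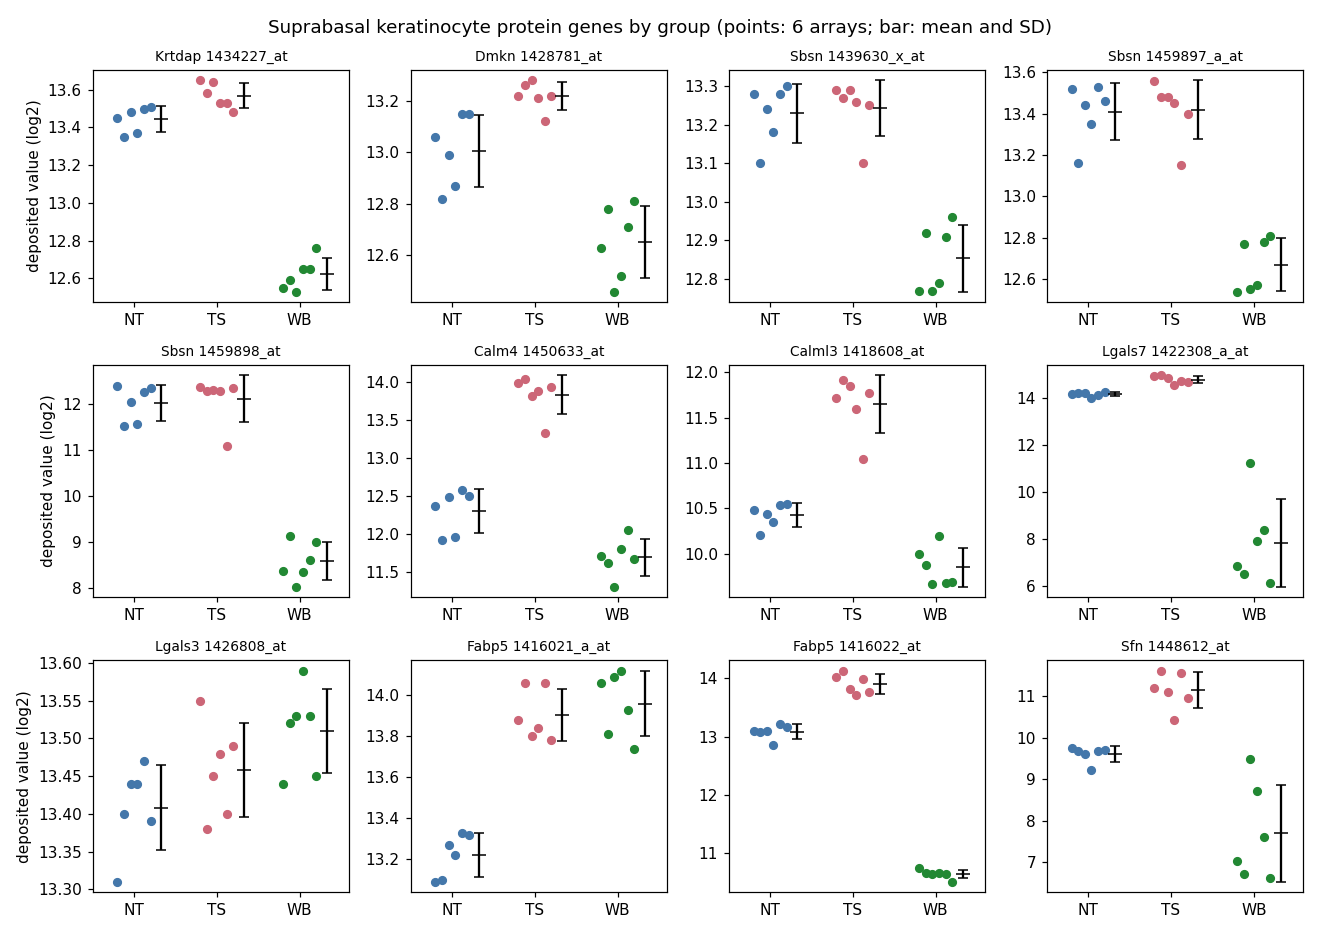
Deposited log2 value of each of the 12 probe sets on every array, in a panel per probe set with its own vertical scale; points are the 6 arrays of NT, TS and WB and the black bar is their mean with SD. Calm4, Calml3, Lgals7, both Fabp5 probe sets and Sfn are higher on every TS array than on any NT array, while the WB arrays lie below all TS arrays in 10 of the 12 panels.

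TS against NT addresses the effect of repeated stripping on these transcripts. The beta-actin control difference was also higher in TS than in NT, by 0.66 with no overlap (exact permutation p = 0.00216, adjusted 0.00259), and that of Gapdh by 0.15 (exact permutation p = 0.0476, adjusted 0.0476). The part of these shifts in the results below was not tested. The calmodulin-like genes, stratifin and Fabp5 rose, Calm4 by 1.53 (SE 0.152) and Sfn by 1.53 (SE 0.420), while the probe sets of Krtdap, Dmkn, Sbsn and Lgals3 differed by 0.21 or less. No probe set fell. Of the 12 probe sets 6 were called higher, against 18.7% of all varying probe sets and 22.9% of the 3209 varying probe sets at least as bright as the dimmest of the 12; called lower were 19.4% and 18.9%. Calls in either direction took 10.1% of all 45037 probe sets. The median difference of the 12 was 0.42, beside 0.003 over varying probe sets. In whole skin, a change in the number of suprabasal cells and a change in RNA per cell cannot be told apart.

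Calm4, a calcium-binding protein of the upper epidermis, ranged from 11.91 to 12.57 in NT with a median of 12.42, and from 13.33 to 14.04 in TS with a median of 13.90. The lowest TS array was thus above the highest NT array, and the rise amounted to 2.89-fold if the scale is log2 (adjusted p = 1.0e-05, limma). Calml3, its neighbour, ranged from 10.21 to 10.55 in NT with a median of 10.46, and from 11.04 to 11.91 in TS with a median of 11.75. Its rise of 1.22 (SE 0.135, adjusted p = 2.4e-05) also left no overlap between the groups. The 95% intervals of the rises were 1.21 to 1.86 for Calm4 and 0.93 to 1.51 for Calml3.

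Fabp5, the epidermal fatty acid carrier, has 2 probe sets that the platform annotation bases on the same cDNA record, and in TS against NT they gave similar rises. The probe set 1416021_a_at ranged from 13.09 to 13.33 in NT (median 13.24) and from 13.78 to 14.06 in TS (median 13.86). The probe set 1416022_at ranged from 12.86 to 13.21 in NT (median 13.10) and from 13.71 to 14.13 in TS (median 13.89). The rises were 0.68 (SE 0.075, adjusted p = 2.5e-05) and 0.82 (SE 0.073, adjusted p = 3.8e-06), with all TS arrays above all NT arrays in both. The 0.14 between these rises did not pass an exact permutation test of the within-array difference (two-sided, p = 0.0606, adjusted over 12 such tests 0.0808); without NT 1, NT 2 or TS 4 its unadjusted exact p was 0.026, 0.0476 and 0.0303.

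Sfn ranged from 9.22 to 9.76 in NT with a median of 9.69, and from 10.42 to 11.62 in TS with a median of 11.15. The groups did not overlap, and the rise passed at adjusted p = 0.0199 (limma). Its SE of 0.420 is set largely by the WB arrays, whose SD was 1.17 against 0.197 in NT and 0.436 in TS; fitted on 12 arrays, without WB, the SE was 0.194 and the adjusted p 0.000687.

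Lgals7, a galectin of stratified epithelium also known as a p53-induced gene, ranged from 14.01 to 14.27 in NT with a median of 14.20, and from 14.57 to 14.97 in TS with a median of 14.80. Every TS array was above every NT array, yet the difference of 0.62 (SE 0.62) did not pass with all 18 arrays (adjusted p = 0.690, limma). The pooled spread again includes the WB arrays, whose SD for Lgals7 was 1.87 against 0.094 in NT and 0.157 in TS. With the 12 NT and TS arrays alone, the same 0.62 had an SE of 0.074 and an adjusted p of 0.000513 (limma). Groups did not overlap upward in 6 of the 12 probe sets, and in 12.2% of all varying ones; none of the 12 separated downward, against 12.7%.

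Lgals3, the galectin that macrophages also carry as Mac-2, did not pass in TS against NT. It ranged from 13.31 to 13.47 in NT (median 13.42) and from 13.38 to 13.55 in TS (median 13.47), and the groups overlapped. The difference of 0.05 had a 95% interval from -0.02 to 0.12. Of 8 macrophage genes 6 fell and 1 rose in the same comparison, and their mean level per array ranged from 10.69 to 11.20 in NT and from 10.26 to 10.67 in TS. What part of the Lgals3 signal comes from macrophages was not tested.

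Krtdap, Dmkn and Sbsn, the neighbouring genes for secreted proteins, differed little between TS and NT. Krtdap ranged from 13.35 to 13.51 in NT (median 13.46) and from 13.48 to 13.65 in TS (median 13.56), a difference of 0.13 (SE 0.043) that missed the threshold (adjusted p = 0.0623, limma). It passed without TS 6 (adjusted p = 0.0408, limma) and without WB 6 (0.0332), and also after quantile normalization (0.0482), once dim probe sets were removed (0.0495), on varying probe sets alone (0.03) and with array weights (0.0323). Dmkn ranged from 12.82 to 13.15 in NT (median 13.03) and from 13.12 to 13.28 in TS (median 13.22), and 5 of 6 TS arrays were above all NT arrays. Its rise of 0.21 (SE 0.069) passed narrowly (adjusted p = 0.0482, limma). That call was lost in 11 of 18 fits that left out 1 array, namely without NT 1, NT 2, NT 3, NT 4, TS 1, TS 2, TS 3, TS 4, TS 6, WB 1 or WB 5 (adjusted p from 0.0578 to 0.113). It was lost as well after median centring (0.0585), with a trended robust prior (0.0552) and with the replicate number as a block (0.0714).

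Sbsn has 3 probe sets, and none passed in TS against NT. The probe set 1459897_a_at ranged from 13.16 to 13.53 in NT (median 13.45) and from 13.15 to 13.56 in TS (median 13.46), and 1439630_x_at from 13.10 to 13.30 (median 13.26) and from 13.10 to 13.29 (median 13.26). The suffix of the latter means that some of its probes also match other transcripts. For these probe sets the 95% intervals of the difference were -0.16 to 0.18 and -0.08 to 0.11. The third, 1459898_at, ranged from 11.53 to 12.39 in NT and from 11.08 to 12.37 in TS, and its wider interval, -0.45 to 0.63, excludes less.

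**Figure D2:**
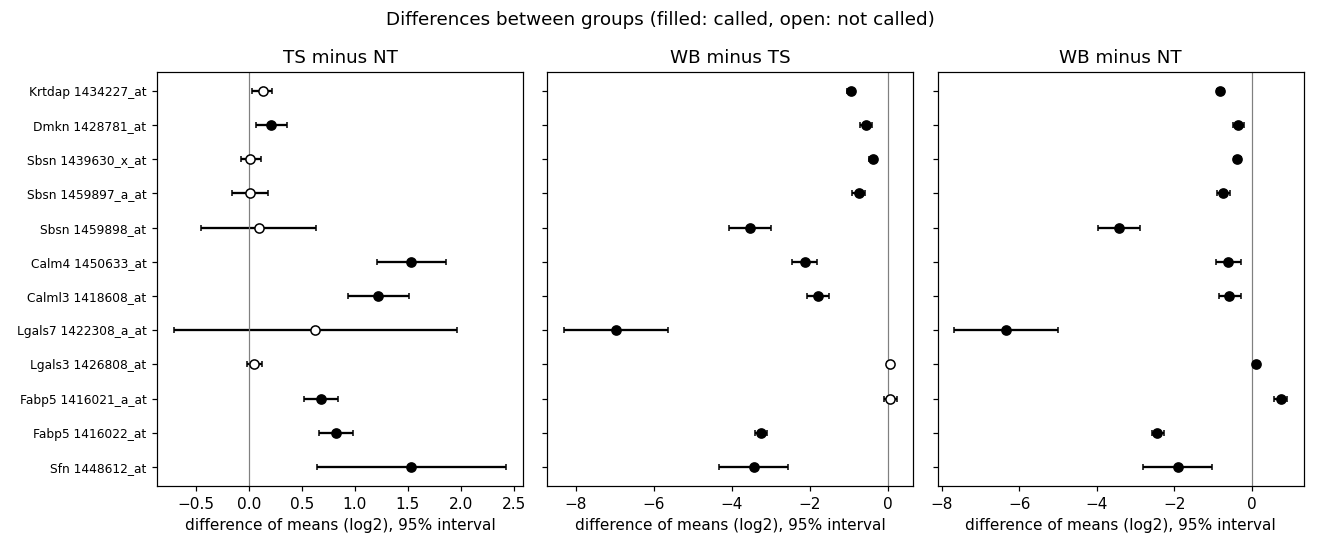
Difference of group means for each of the 12 probe sets in log2 units, in a panel per comparison with its own horizontal scale; bars are 95% intervals from the fit of 18 arrays, filled points are called and open points are not. In TS minus NT the called points lie between 0.21 and 1.53, and in WB minus TS they lie between -6.97 and -0.39.

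WB against TS addresses feeding of the extract during stripping, and all of its values stand beside the 3' to 5' control differences given above. Of the 12 probe sets 10 fell and none rose. After quantile normalization 9 were called lower and 2 higher, the latter Lgals3 and Fabp5 1416021_a_at, and after median centring 10 lower and 1 higher, Lgals3. The differences ran from -0.39 for a Sbsn probe set, which turned to 0.027 after quantile normalization, to -6.97 for Lgals7. Lgals3 and a Fabp5 probe set did not pass. Among all varying probe sets 41.7% were called lower and 47.1% higher, and among those at least as bright 40.1% and 50.6%, so most varying probe sets differ in this comparison. Of all 45037, 23.6% were called in either direction. The 10 that fell also did not overlap with TS, against 37.3% of varying probe sets downward and 40.3% upward. The median of the 12 was -1.37, beside 0.09 over varying probe sets.

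Fabp5 shows most directly how far a WB value depends on the probe set. The probe set 1416021_a_at ranged from 13.74 to 14.12 in WB (median 14), in the range of TS, and differed from TS by 0.05 (95% interval -0.11 to 0.22, adjusted p = 0.662, limma). After quantile normalization that difference was 0.55 (adjusted p = 0.000254, limma). The probe set 1416022_at ranged from 10.51 to 10.74 in WB (median 10.65) and fell by 3.26 (SE 0.073, adjusted p = 2.5e-15). On each array the former minus the latter was -0.14 to 0.12 in TS and 3.14 to 3.46 in WB, and these ranges are far apart. The unequal change of 3.31 passed an exact permutation test (two-sided, p = 0.00216, the smallest that 6 against 6 arrays allow, adjusted 0.00325). Against NT the probe sets gave opposite calls: 1416021_a_at was higher in WB by 0.74 (SE 0.075) and 1416022_at differed by -2.44 (SE 0.073). No direction for the Fabp5 gene can be read from WB.

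The Sbsn probe sets also fell by unequal amounts. The probe set 1459898_at ranged from 8.03 to 9.12 in WB (median 8.5) and fell by 3.53 (SE 0.254). The probe set 1459897_a_at, based on the same cDNA record, ranged from 12.54 to 12.81 (median 12.67) and fell by 0.75 (SE 0.079). The probe set 1439630_x_at ranged from 12.77 to 12.96 (median 12.85) and fell by 0.39 (SE 0.044). The change of one against another was 2.78 for the pair with the same record, 3.13 for 1439630_x_at against 1459898_at and 0.36 for the remaining pair (exact permutation p = 0.00216 for each, two-sided, adjusted 0.00325). In TS against NT none of the 3 pairs differed by more than 0.08 and none passed (exact permutation p from 0.701 to 0.974).

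**Figure D3:**
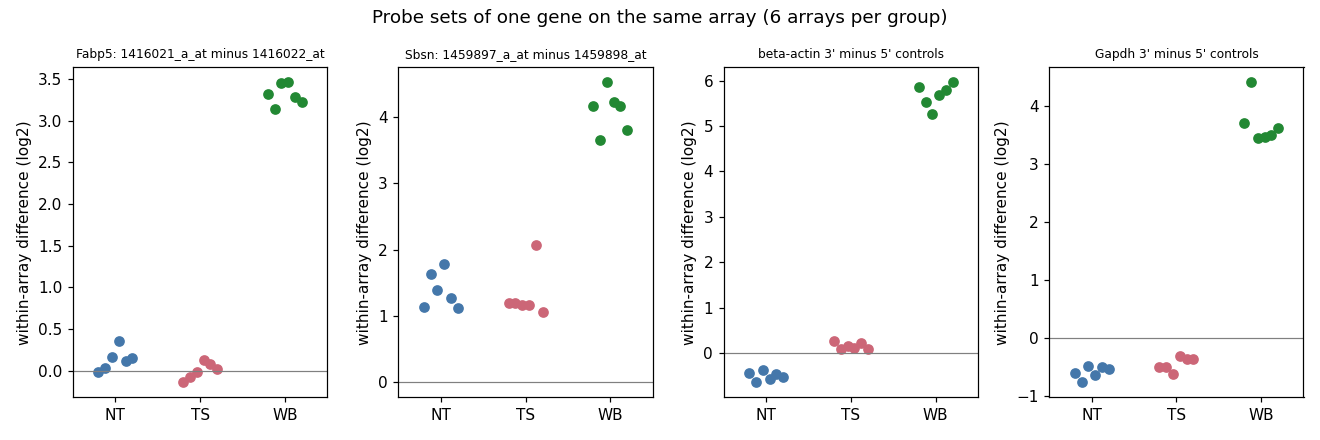
Within-array difference in log2 units between probe sets of one gene: Fabp5, Sbsn, and the 3' minus 5' control probe sets of beta-actin and Gapdh; each point is an array of NT, TS or WB, 6 per group. In all 4 panels the WB points lie above every NT and TS point, for Fabp5 at 3.14 to 3.46 against -0.14 to 0.37.

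Krtdap and Dmkn, the neighbours of Sbsn, fell as well. Krtdap ranged from 12.53 to 12.76 in WB (median 12.62), below every TS and NT array, and fell by 0.95 (SE 0.043, adjusted p = 2.2e-11, limma). Dmkn ranged from 12.46 to 12.81 (median 12.67) and fell by 0.57 (SE 0.069, adjusted p = 3.4e-06). After quantile normalization the differences from TS were smaller but kept their calls: -0.55 for Krtdap, -0.16 for Dmkn (adjusted p = 0.0393, limma) and -0.35 for Sbsn 1459897_a_at. Each of Krtdap and Dmkn has 1 probe set, so the agreement of probe sets could not be looked at for them.

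Among the calmodulin-like genes Calm4 ranged from 11.30 to 12.05 in WB (median 11.68) and Calml3 from 9.67 to 10.20 (median 9.78). From TS Calm4 fell by 2.14 (SE 0.152, adjusted p = 5.8e-09, limma) and Calml3 fell by 1.80 (SE 0.135, adjusted p = 1.1e-08). In both genes WB was also below unstripped skin, with differences of -0.61 (SE 0.152, adjusted p = 0.00332, limma) and -0.58 (SE 0.135, adjusted p = 0.00195). The Calm4 arrays of WB and NT overlapped, with 5 of 6 WB arrays below all NT arrays, and its call against NT was lost after quantile normalization (-0.27, adjusted p = 0.1, limma).

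Lgals7 had the largest fall of the 12 and the widest spread among WB arrays. It stood at 6.84, 6.50, 11.23, 7.91, 8.35 and 6.11 on WB 1 to WB 6, so WB 3 was well above the rest and 3 arrays lay below their array's median. The difference from TS was -6.97 (SE 0.62, adjusted p = 9.9e-08, limma), and -7.65 without WB 3. Sfn stood at 7.03, 6.73, 9.50, 8.72, 7.61 and 6.62 on the same arrays, again with WB 3 highest and WB 6 lowest. It differed by -3.44 from TS (SE 0.420, adjusted p = 3.6e-06, limma), by -3.80 without WB 3, and by -1.91 from NT (SE 0.420, adjusted p = 0.00118), and its NT and WB arrays overlapped through WB 3. Since some of these values are near or under the array medians and the table holds no measure of background, the sizes of the falls of Lgals7 and Sfn are uncertain.

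In the deposited values Lgals3 was nearly level in all groups. Its WB arrays ranged from 13.44 to 13.59 (median 13.52), 0.05 from TS (95% interval -0.02 to 0.12, adjusted p = 0.285, limma). After median centring it differed from TS by 0.08 (adjusted p = 0.0192, limma) and after quantile normalization by 0.42 (adjusted p = 1.3e-09). Against NT it was higher by 0.10 (SE 0.034, adjusted p = 0.0201, limma), a call lost without WB 4 (adjusted p = 0.0507). Macrophage genes fell in 7 of 8 cases from TS to WB and 1 rose, and their mean level per WB array was 8.73 to 8.95.

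The comparison of WB with NT sets stripped, extract-fed skin against untouched skin. Lgals7, Sfn and the calmodulin-like genes were lower in WB, although all of them had stood higher in TS than in NT on every array. All 12 probe sets were called, 10 lower and 2 higher (Lgals3 and Fabp5 1416021_a_at), against 43.6% lower and 45.7% higher of all varying probe sets, 40.7% and 48.9% of those at least as bright, and 23.7% of all 45037 in either direction. Groups did not overlap in 8 downward and 1 upward, against 39.7% and 42.0% of varying probe sets. Krtdap differed by -0.82 (SE 0.043), Dmkn by -0.36 (SE 0.069), the Sbsn probe sets by -0.38, -0.74 and -3.43, and Lgals7 by -6.35 (SE 0.62). The sign for Dmkn and Sbsn 1439630_x_at turned after quantile normalization (to 0.11 and 0.092). After that normalization 7 probe sets were called lower and 2 higher, and the values for Krtdap, Sbsn 1459897_a_at, Fabp5 1416021_a_at and Lgals3 were -0.40, -0.32, 1.31 and 0.49. This comparison shares its WB arrays with that of WB and TS and its NT arrays with that of TS and NT.

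Within a group the probe sets did not all rank the arrays alike. NT 2 was the lowest NT array in 7 of the 12 probe sets, which are all those of Krtdap, Dmkn, Sbsn, Calm4 and Calml3. TS 5 was the lowest TS array in 6, those of Dmkn, Sbsn, Calm4 and Calml3. On both arrays the mean of 21 upper epidermis genes, such as Krt1, Krt10 and Flg, was also the lowest of its group, 9.98 on NT 2 against 10.17 to 10.61 on other NT arrays and 10.91 on TS 5 against 11.25 to 11.51 on other TS arrays. What part of the members' ranking this accounts for was not tested.

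Lgals7, Sfn and Fabp5 followed another order. NT 4 was lowest among NT arrays, and TS 4 among TS arrays, for Lgals7, Sfn and Fabp5 1416022_at, while TS 2 was the highest TS array for these, for the other Fabp5 probe set, for Calm4 and for Calml3. In WB the orders ran against each other: WB 3 was lowest in 6 probe sets, of Krtdap, Dmkn, Sbsn, Calm4 and Calml3, and highest for Lgals7 and Sfn, and WB 6 was lowest for Lgals7, Sfn and both Fabp5 probe sets and highest for Krtdap, Dmkn and 2 of Sbsn. WB 3 had the smallest 3' minus 5' difference of the WB arrays for beta-actin and Gapdh, 5.27 and 3.45. WB 6 had the largest for beta-actin, 5.96, but not for Gapdh, where WB 6 stood at 3.63 and WB 2 was highest at 4.41. The mean of 6 basal keratinocyte genes was also the lowest of its group on NT 4 (10.73), TS 4 (10.91) and WB 6 (9.31). It was the highest of its group on WB 3 (10.13) but not on TS 2 (11.24). The mean of 21 upper epidermis genes was the lowest of WB on WB 3 (10.44), next to 10.45 on WB 6. The part of these measures in this order was not tested.

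**Figure D4:**
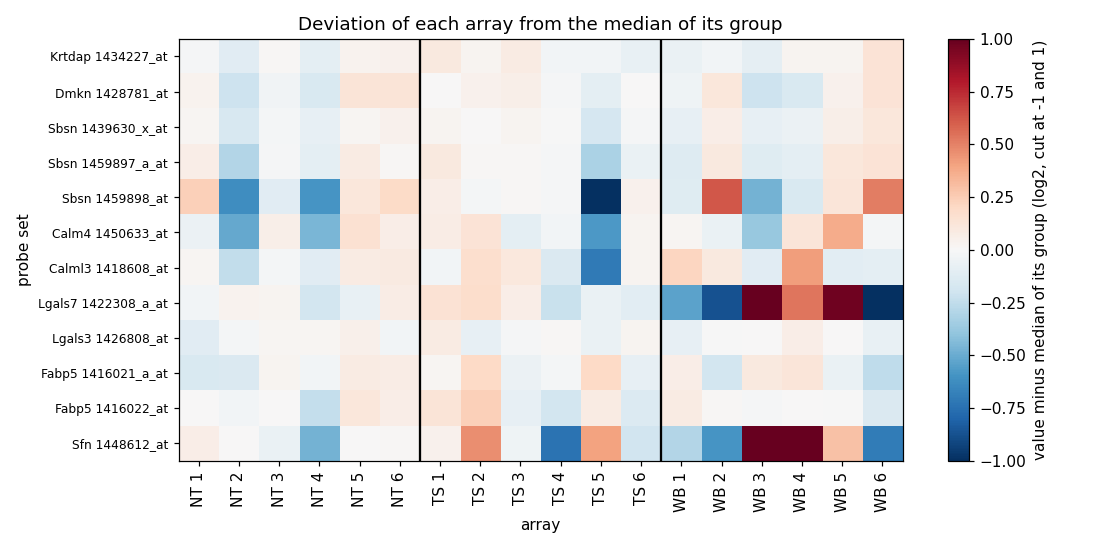
Value of each probe set on each of the 18 arrays minus the median of its group, in log2 units, with colours cut at -1 and 1; black lines separate NT, TS and WB. NT 2 and TS 5 are low for Sbsn 1459898_at, Calm4 and Calml3, and on WB 3 Lgals7 and Sfn are high while the probe sets of Krtdap, Dmkn, Sbsn, Calm4 and Calml3 are not above the median.

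Correlations between genes were computed within each group of 6 arrays, with 1 probe set per gene, over 108 pairs. Dmkn and Calml3 gave r = 0.96 in NT (exact permutation p = 0.00278, rho = 0.94, exact permutation p = 0.0167) and r = 0.95 in TS (exact permutation p = 0.00556, rho = 0.94, exact permutation p = 0.0167). Without the 2 arrays farthest from the median of Dmkn, r was 0.99 in NT and 0.94 in TS. In WB the same pair gave r = -0.31 (exact permutation p = 0.549, rho = 0.03). Other pairs varied in this respect: Krtdap and Sbsn in NT went from 0.82 to -0.26 without the 2 farthest arrays. Dmkn and Sbsn in WB gave r = 0.89 both with them (exact permutation p = 0.0556) and without them. Negative values occurred too, and in WB Dmkn gave r = -0.94 with Fabp5 1416021_a_at and -0.92 with Sfn (exact permutation p = 0.0125 for each). Without the 2 farthest arrays these were -1.0 and -0.55. Fabp5 stood by that probe set alone, and its other probe set, which differed from it in WB, was not correlated. Lgals7 and Sfn gave r = 0.91 in WB (exact permutation p = 0.00972, rho = 0.94, exact permutation p = 0.0167) and 0.74 without the 2 farthest arrays. None of the 108 passed after Benjamini-Hochberg adjustment, where the lowest adjusted p was 0.123 for r and 0.200 for rho, and 16 had an unadjusted exact p under 0.05.

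Relatives of these genes were taken from gene lists, each gene standing by its brightest varying probe set. The list of other galectins includes the galectin ligand Lgals3bp, and 6 of its 8 genes on the array vary. In TS against NT 3 of these 6 fell and none rose. The adipocyte galectin Lgals12 fell by 1.37 (SE 0.16) and Lgals3bp fell by 0.83 (SE 0.18). Of 8 other fatty acid and retinoid carriers on the array 5 vary. Of these 5, none fell and 2 rose, namely the retinoic acid binding proteins Crabp2 (1.39, SE 0.10) and Crabp1 (1.07, SE 0.28). Of 6 other 14-3-3 genes 3 fell, among them Ywhab (-0.26, SE 0.04) and Ywhah (-0.27, SE 0.07), and none rose, where Sfn rose by 1.53. Calml4, the only further calmodulin-like gene of the list with a probe set under its own symbol alone, fell by 1.48 (SE 0.20). The medians of these lists were -0.34, 0.13, -0.08 and -1.48 over varying genes, beside 0.003 over all 7443 varying named genes.

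Genes of the upper epidermis and its regulators rose beside the calmodulin-like genes, Fabp5 and Sfn in TS against NT. Of 21 upper epidermis genes 16 rose and 1 fell, with a median of 0.91; cornifelin (Cnfn) rose by 1.44 (SE 0.19), transglutaminase Tgm1 by 1.23 (SE 0.11), the protease Asprv1 by 0.68 (SE 0.17) and Klk7 by 0.23 (SE 0.05). Of 8 regulators on the array 7 vary, and of these 7 none fell and 6 rose. Among the 6 were Trp63, the p53 relative that sustains stratified epithelium (0.63, SE 0.12), Tfap2a (0.45, SE 0.08) and Zfp750 (0.30, SE 0.05). Notch1 differed by 0.03 (SE 0.07) without passing. Of 6 basal keratinocyte genes 2 rose and 1 fell. Among all 7443 varying named genes 1420 rose and 1521 fell.

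In WB against TS the same lists divided. Of the 21 upper epidermis genes 11 fell and 3 rose, with a median of -0.30 (against NT, 9 were higher and 9 lower in WB). Among those that fell were Cnfn (-3.45, SE 0.19), Asprv1 (-2.47, SE 0.17), Tgm1 (-1.89, SE 0.11) and Klk7 (-1.46, SE 0.05). Those that rose were Dsc1 (0.85, SE 0.17), Cers3 (0.69, SE 0.19) and Flg (0.61, SE 0.16). Of the regulators 5 rose and 1 fell; Trp63 rose by 1.35 (SE 0.12) and Tfap2a by 0.75 (SE 0.08), and Zfp750 fell by 0.37 (SE 0.05). Of the basal keratinocyte genes 5 of 6 fell, and their mean level per array was 9.31 to 10.13 in WB against 10.91 to 11.40 in TS. Of the 6 varying genes in the list of other galectins 4 fell, among them Lgals9 (-2.73, SE 0.13) and Lgals8 (-1.22, SE 0.05). Of the 5 varying other carriers 4 fell, among them Crabp2 (-4.25, SE 0.10), Fabp3 (-3.98, SE 0.27) and Fabp4 (-1.77, SE 0.13). Of the 14-3-3 genes 3 fell, Ywhah among them (-1.25, SE 0.07), and 2 rose, Ywhab by 0.39 (SE 0.04) and Ywhaz by 0.44 (SE 0.08). Among all varying named genes 3591 rose and 2953 fell.

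Markers of the other tissues in whole skin moved too, and their part in the members' differences was not tested. Of the genes on the array, 5 of 6 hair follicle and 2 of 5 endothelial genes vary. In TS against NT all 4 adipocyte genes, all 6 skeletal muscle genes and all 5 varying hair follicle genes fell. The 2 varying endothelial genes rose, and no fibroblast or liver gene passed. The mean level of the muscle genes per array ranged over 6.61 to 8.0 in WB, 10.17 to 10.75 in TS and 12.44 to 14.25 in NT. In WB against TS 5 of 6 muscle genes, 2 of 4 adipocyte genes, 3 of 6 fibroblast genes and the 2 varying endothelial genes fell. In the same comparison 1 adipocyte gene, 1 fibroblast gene and 3 of the 5 varying hair follicle genes rose, and no liver gene passed.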

How the data were processed

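Per the labels' protocols, 100 ng of skin RNA from each of 18 samples was labelled for Affymetrix mouse arrays. The deposited table has 1 value per probe set and array and was read as log2 from its range, since neither the base nor the authors' summarising and normalizing method is given in the sources used here. The 64 array controls were left out and 45037 probe sets tested in 1 fit of 18 arrays without covariates (R 4.3.3, limma 3.58.1, functions lmFit and eBayes; two-sided; Benjamini-Hochberg adjustment per comparison). Probe sets with a range under 0.01 carry no information. The limma script was tested on simulated data. Single values were compared by exact permutation with SciPy 1.17.1. The number of arrays limits the precision. Named were all members and, per context list, up to 4 called genes with the smallest adjusted p in TS against NT or WB against TS, of which part are printed. Krt1, Krt10 and Flg serve as examples of a list. Dsc1, Cers3 and Flg are also named because they rose in WB against TS, and Krt2 because it fell in TS against NT. Members and lists were chosen with earlier results of these data known. Promoter windows, neighbours and motif shares come from RefSeq tables on GRCm38.p6. Alternatives were median centring, quantile normalization, a filter on dim probe sets, varying probe sets alone, array weights, 12-array fits, a trended robust prior, the replicate number as a block, averaging the probe sets of each gene, and leaving out each array in turn.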

Additional observations from a re-analysis of the deposited data

Results flagged for a closer look

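TS 5 lay apart below the other TS arrays for 4 probe sets: Sbsn 1459898_at at 11.08 with the next array at 12.28, Sbsn 1439630_x_at at 13.10 against 13.25, Calm4 at 13.33 against 13.81, and Calml3 at 11.04 against 11.60. NT 4 lay apart below the other NT arrays for Sfn, at 9.22 against 9.62. In all, 5 of 36 groups of 6 arrays held such an array by Dixon's criterion, which chance alone meets in about 1 group in 20; the probe sets share arrays, so these are not separate events. Without TS 5 the rises of Calm4 and Calml3 in TS against NT stayed called, as did that of Sfn without NT 4.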

How the results depend on the processing

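Of 936 differences recomputed over the 36 of the 12 probe sets and 3 comparisons, 899 kept direction and side of the threshold. With the sign kept, 17 lost and 10 gained a call, and a further 10 changed sign. The 3 changes of sign after quantile normalization were of called differences and lost their calls as well. The changes of sign were 3 after quantile normalization (Sbsn 1439630_x_at 0.027 against TS and 0.092 against NT, Dmkn 0.11 against NT) and 7 of uncalled Sbsn differences in TS against NT when 1 array was left out, with ranges of -0.013 to 0.040 for 1439630_x_at, -0.040 to 0.064 for 1459897_a_at and -0.007 to 0.30 for 1459898_at. The change of 1439630_x_at against 1459897_a_at there ranged from -0.025 to 0.027 and against 1459898_at from -0.26 to 0.002. Among the 45037 probe sets, 10612 were called in WB against TS and 10667 in WB against NT, but 43993 in each after median centring and 39795 and 41328 after quantile normalization, which move probe sets that are constant in the table. The share of calls that were higher, 53.1% and 51.2%, was then 88.8% and 88.3%, and 88.1% and 88.3%; in TS against NT it was 49.2%, and 68.8% after quantile normalization. With the replicate number as a block, 3 genes in place of 5 were called in TS against NT (Sfn at adjusted p = 0.0506 and Dmkn at 0.0714, limma). Deviations of same-numbered arrays correlated at -0.268 to 0.138, over 0.1 in 4 of 18 pairs. Arrays of unlike number were not compared in this way, so whether same-numbered arrays share more than a number was not tested. Signal over background is unknown, which limits dim values.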
